A study of Mus musculus with 62 samples.

Results

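The Serpina3 cluster is a row of neighbouring genes on mouse chromosome 12 that encode secreted and intracellular protease inhibitors. Its members here are the 8 paralogs Serpina3n, Serpina3k, Serpina3c, Serpina3m, Serpina3h, Serpina3i, Serpina3g and Serpina3f, matched by symbol among the 47643 gene symbols of the deposited table. The list was drawn up with values of these same libraries in view, above all the high levels late after injection of the cachectic melanoma cells, so the differences at 6 and 8 weeks are given below as descriptions, and where calls are counted there nothing is read from them. The differences at 2 and 4 weeks, between the 2 other arms and between some weeks of 1 arm were tested, but the members had been chosen from the same series.

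RNA was measured in 62 libraries of brown adipose tissue, a heat-producing fat. The CAC arm had received cachectic melanoma cells, the NCAC arm melanoma cells that are non-cachectic, and the Con arm a mock injection, and each arm was sampled 2, 4, 6 and 8 weeks later. Each of these 12 groups had 5 biological replicates, except CAC at 8 weeks, which had 7. All were female mice with a labelled age of 2 months. The series text names NCI Ath/nude mice, whereas the sample labels give C57BL/6J, also spelled C57BL6/J, so the strain is uncertain. Cachexia is a wasting syndrome of tumour-bearing hosts in which adipose tissue and muscle are lost, and no body or fat weight was used here.

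Serpins are suicide inhibitors: a protease cuts an exposed loop of the serpin, the loop snaps into the body of the protein, and the protease stays trapped. The letters of this reactive loop set which protease is bound. The human genome carries SERPINA3, which encodes alpha-1-antichymotrypsin, an acute-phase plasma protein made by liver, as a lone gene, and the mouse has an expanded set of related genes in its place. Serpina3n encodes a secreted inhibitor that acts on granzyme B and cathepsin G, Serpina3k encodes the plasma inhibitor contrapsin, and Serpina3g encodes an intracellular inhibitor of cathepsins known from white blood cells.

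The members differ in the loop far more than on its flanks, which is why the transcript stretch around it is shown for the 6 members that passed the filter on low values, the annotated pseudogene Serpina3h among them. The stretches were read from GENCODE vM21 transcripts of mm10, 5′ to 3′, and capitals mark bases that differ from Serpina3n in a pairwise alignment.
Serpina3n: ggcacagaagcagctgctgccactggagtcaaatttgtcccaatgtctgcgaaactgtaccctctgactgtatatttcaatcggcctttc
Serpina3k: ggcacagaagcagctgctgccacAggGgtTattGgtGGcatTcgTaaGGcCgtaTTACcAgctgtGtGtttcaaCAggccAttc
Serpina3c: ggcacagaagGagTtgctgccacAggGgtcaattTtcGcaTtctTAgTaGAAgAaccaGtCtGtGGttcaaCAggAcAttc
Serpina3m: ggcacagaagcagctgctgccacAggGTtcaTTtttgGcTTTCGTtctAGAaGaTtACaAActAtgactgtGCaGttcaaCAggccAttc
Serpina3h: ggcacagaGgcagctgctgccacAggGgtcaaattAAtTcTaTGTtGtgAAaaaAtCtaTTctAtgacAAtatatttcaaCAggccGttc
Serpina3i: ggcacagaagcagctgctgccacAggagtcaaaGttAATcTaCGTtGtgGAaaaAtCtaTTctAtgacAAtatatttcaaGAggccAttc
Over the hinge, the first 27 bases of Serpina3n, the 7 other members were 85.2% to 96.3% identical to it. Over the next 48 bases, which hold the exposed part of the loop, identity was 50% to 64.6%. The last 15 bases were 73.3% to 80.0% identical. The Serpina3n stretch is 90 bases long, that of Serpina3k is 84 and that of Serpina3c 81. The search pattern and these boundaries were set after reading the sequences.

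In GENCODE the cluster holds 14 Serpina3 genes and pseudogenes, and the 8 members span 267.9 kb, from chr12:104146382-104414329 (mm10). Serpina3n lies at chr12:104406729-104414329 on the plus strand, as do the other members apart from Serpina3c, which lies at chr12:104146382-104153870 on the minus strand. Serpina3h, at chr12:104247905-104253669, is annotated as a transcribed unprocessed pseudogene, and the other 7 members are protein coding. The annotated span of Serpina3m, chr12:104338486-104394257, covers all of Serpina3k, chr12:104338486-104346144, on the same strand. Reads of such near copies can be split between genes in ways the deposited values do not show. Of all 50-base stretches of the Serpina3n transcript, 6.90% occur in transcripts of other genes. That share was 4.25% for Serpina3c, 14.04% for Serpina3k, of which most was with Serpina3m, 19.1% for Serpina3m and 23.9% for Serpina3h, of which most was with Serpina3i. Values of Serpina3k, Serpina3m, Serpina3h and Serpina3i are therefore less certain than those of Serpina3n and Serpina3c.

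The deposited unit is TPM, which divides by transcript length and brings each library to a common sum, so that no read depth is kept. Between 10851 and 12347 genes reached 1 TPM in a library. Ucp1, which defines brown fat, stood at 1639.9 to 9679 TPM, so brown fat was present in every library. Its level does not show how much other tissue a library held. Summed skeletal muscle markers ranged from 70.3 TPM in Con library 1 of 2 weeks to 17300 TPM in Con library 4 of 4 weeks. Mitochondrially encoded genes took 39.6% to 66.1% of TPM, with Con libraries 3 and 4 of 4 weeks standing apart at 39.6% and 39.7%. The share was 44.3% to 55.6% in CAC at 8 weeks and 59.9% to 65.5% in Con at 8 weeks, so the other genes of CAC libraries share a larger part of the fixed total. The median gene was accordingly higher by 0.28 (log2) in CAC than in Con at 8 weeks, and by -0.01 after rescaling by median of ratios. In bulk tissue a change in the number of cells of a type and a change in RNA per cell cannot be told apart.

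Of the 8 members, 6 passed the filter of at least 1 TPM in at least 5 libraries. Serpina3n and Serpina3c reached 1 TPM in 62 of 62 libraries, Serpina3k in 31, Serpina3m in 21, Serpina3h in 20 and Serpina3i in 13. All 13 libraries that carried Serpina3i past 1 TPM, 18 of the 21 for Serpina3m and 16 of the 20 for Serpina3h were CAC libraries. These 3 genes thus entered the test through the arm in which they were high. Serpina3g reached 1 TPM in 3 libraries and Serpina3f in 0, and both were left out of the fit.

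Serpina3n had the highest mean of the members in every group and climbed through the CAC arm. In Con at 8 weeks the 5 libraries held 11.7, 9.50, 7.52, 13.3 and 5.40 TPM. In NCAC at 8 weeks they held 7.58, 16.7, 28.5, 17.5 and 9.17 TPM. The 7 CAC libraries of 8 weeks ranged from 42.4 to 905 TPM with a median of 427 TPM. Every CAC library of 8 weeks lay above every Con and NCAC library of any week, where the highest value was 28.5 TPM. CAC library 3 of 8 weeks, at 42.35 TPM, was far below the next, at 315.55 TPM. At 6 weeks the CAC libraries held 412, 131, 366, 219.98 and 187 TPM, again all above the 9.38 to 17.2 TPM of Con and the 9.32 to 18.3 TPM of NCAC at that week. On the log2(TPM + 1) scale, on which all differences below are given, Serpina3n was higher in CAC than in Con by 4.13 (SE 0.52) at 6 weeks and by 5.23 (SE 0.48, n = 7 and 5) at 8 weeks. Against NCAC the differences were 4.08 (SE 0.52) and 4.63 (SE 0.48). It ranked 4 among the 12581 genes by difference in all 4 of these comparisons. After median-of-ratios rescaling the difference to Con at 8 weeks was 4.89 (SE 0.46).

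**Figure D1:**
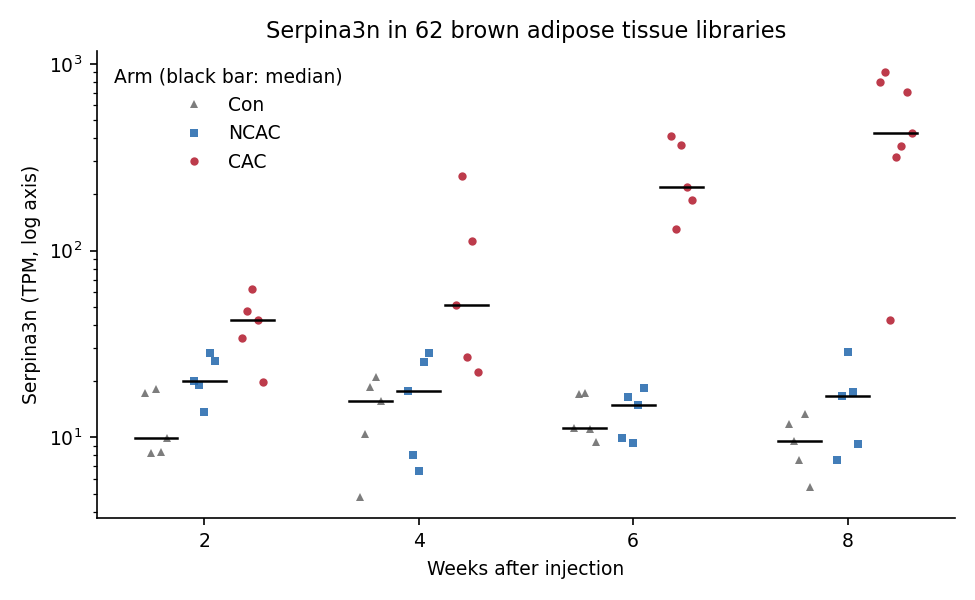
Serpina3n in TPM (log axis) against weeks after injection, 1 point per library, with the arms side by side (Con triangles, NCAC squares, CAC circles) and a black bar at each group's median. The CAC libraries rise from a median of 42.5 TPM at 2 weeks to 427 TPM at 8 weeks, with library 3 of 8 weeks low at 42.35 TPM, while Con and NCAC stay at or under 28.5 TPM.

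Serpina3k, the contrapsin gene, varied most among libraries. In Con at 8 weeks it stood at 0.335, 1.49, 0.250, 0.479 and 0.325 TPM, and in NCAC at 8 weeks at 0.235 to 2.52 TPM. The 7 CAC libraries of 8 weeks held 140.2, 15.1, 3.44, 14.9, 13.6, 106 and 15.4 TPM. Libraries 1 and 6 stood far above the group's median of 15.1 TPM, and the lowest, library 3, still lay above all Con and NCAC libraries of that week. At 6 weeks the CAC libraries split in the same way, with 22.3 and 14.95 TPM in libraries 1 and 5 and 1.27 to 3.79 TPM in the other 3, and overlapped with Con (0.278 to 2.84 TPM). The difference to Con was 1.68 (SE 0.59) at 6 weeks and 3.96 (SE 0.55) at 8 weeks.

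Serpina3c, known from plasma as a kallikrein-binding protein, had a steady basal level, 2.92 to 9.66 TPM over the 40 Con and NCAC libraries. The CAC libraries of 8 weeks held 63.8, 56.5, 7.21, 22.5, 22.7, 62.3 and 26.2 TPM. Apart from library 3, which overlapped with NCAC (3.14 to 8.71 TPM), all were higher than every library of the other arms. The difference to Con at 8 weeks was 2.53 (SE 0.32) and that at 6 weeks 1.62 (SE 0.34).

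Serpina3m had a basal level at or under 1.33 TPM in Con and NCAC. In CAC at 8 weeks the 7 libraries held 52.7, 38.3, 1.43, 11.1, 16.4, 39.0 and 17.0 TPM, and in CAC at 6 weeks 17.5, 4.35, 15.3, 6.05 and 6.25 TPM. All of these 12 values lay above the highest Con or NCAC value, with library 3 of 8 weeks only just above it. Its difference to Con was 2.76 (SE 0.43) at 6 weeks and 3.85 (SE 0.40) at 8 weeks. Serpina3m shares sequence with Serpina3k, and their proportion varied between libraries. Library 2 of 8 weeks held 38.3 TPM of Serpina3m and 15.1 TPM of Serpina3k, whereas library 6 held 39.0 and 106 TPM. Pearson's r of log2(TPM + 1) between them was 0.87 over the 62 libraries and 0.69 after subtracting each group's mean. Both were the highest values of Serpina3k with any other member tested.

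The pseudogene Serpina3h and its neighbour Serpina3i moved as a pair at lower levels. Serpina3h held 14.8, 13.2, 4.31, 6.29, 12.9, 16.6 and 7.52 TPM in CAC at 8 weeks against 0.372 to 0.909 TPM in Con and 0.239 to 0.624 TPM in NCAC. Serpina3i held 5.23, 4.67, 1.03, 2.20, 3.03, 5.11 and 2.44 TPM in CAC, and did not exceed 0.667 TPM in any Con or NCAC library. Both were fully separated from the other arms at that week. Their differences to Con at 8 weeks were 2.73 (SE 0.28) and 1.80 (SE 0.20), and a pseudocount of 0.1 in place of 1 raised these to 3.76 and 3.49, since the scale compresses low values. The same pseudocount gave 5.44 for Serpina3m and 5.28 for Serpina3k.

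Serpina3g did not share the pattern of the others, and Serpina3f stayed close to 0. The Serpina3f group means were nonetheless highest in CAC at 8 weeks (0.149 TPM) and 6 weeks (0.0834 TPM). In the other groups they were at most 0.0459 TPM. Serpina3g, the intracellular inhibitor, was at 0.240 to 1.13 TPM in CAC at 8 weeks and 0.0780 to 1.27 TPM in Con, and its highest value of all, 2.29 TPM, was in a Con library of 6 weeks. Serpina3f never passed 0.348 TPM and was listed at 0 in 9 libraries. In a fit with no filter on low values the differences between CAC and Con at 8 weeks were 0.15 (SE 0.16) for Serpina3g and 0.13 (SE 0.04) for Serpina3f. These 2 members thus mark the lower edge of the list: Serpina3i, with the lowest level among the 6 tested, had a mean of 3.39 TPM in CAC at 8 weeks, and Serpina3g, the next below, 0.5999 TPM. The 3 protein-coding genes of the cluster outside the list, Serpina3a, Serpina3b and Serpina3j, reached 1 TPM in 0 libraries. The pseudogene Serpina3e-ps, also no member, held 0.345 to 10.7 TPM in CAC at 8 weeks and at most 0.384 TPM in Con and NCAC.

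**Figure D2:**
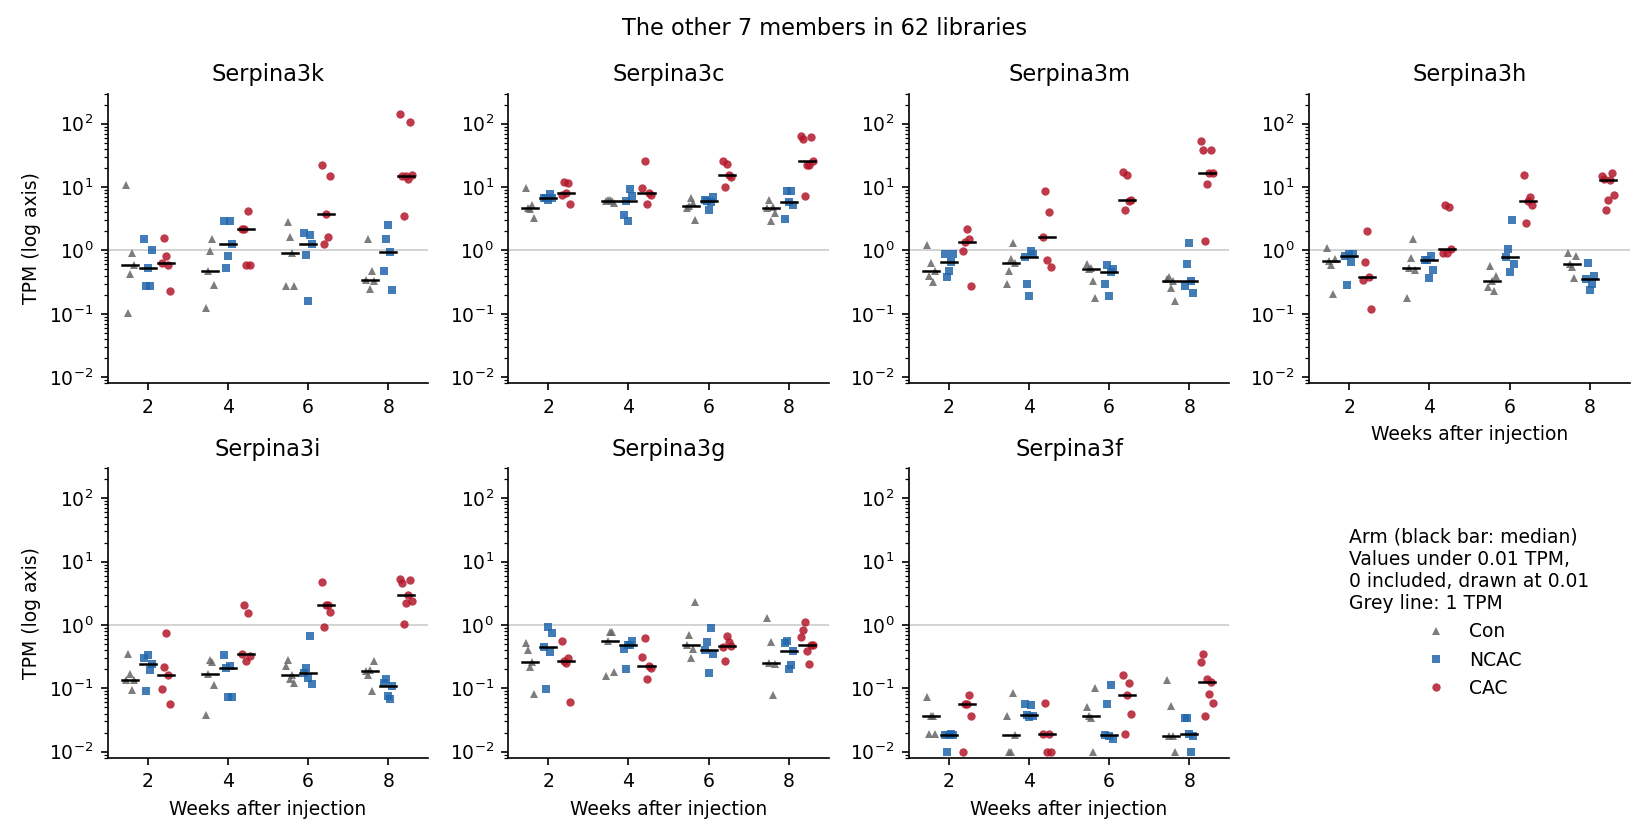
The other 7 members in TPM (log axis, the same in all panels) against weeks after injection, 1 point per library, with the arms side by side (Con triangles, NCAC squares, CAC circles), black bars at group medians and a grey line at 1 TPM; values under 0.01 TPM are drawn at 0.01. Serpina3k, Serpina3c, Serpina3m, Serpina3h and Serpina3i are raised in CAC at 6 and 8 weeks, whereas Serpina3g stays between 0.0601 and 2.29 TPM in all arms.

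For context, 52.1% of the 12581 genes tested were called higher in CAC than in Con at 8 weeks (limma, Benjamini-Hochberg adjusted p under 0.05) and 1.97% lower, and all 6 tested members were among those higher. After median-of-ratios rescaling the split was 13.5% higher and 12.8% lower. At 6 weeks 20.7% were called higher than Con and 0.978% lower, or 5.36% and 2.93% after rescaling, again with 6 of 6 members among them. Against NCAC 37.3% were called higher and 1.98% lower at 8 weeks (12.9% and 11.5% after rescaling), with 6 members among those higher. At 6 weeks these were 5.82% and 1.95% (5.8% and 4.51% after rescaling), with 5 members, Serpina3k being the exception. The CAC libraries lay wholly above Con for 14.6% of genes at 8 weeks and 15.2% at 6 weeks, and wholly above NCAC for 6.82% and 6.41%. Members did so in 6, 5, 5 and 4 of 6 cases. Nothing is read from these counts, since these comparisons were used in choosing the genes.

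At 4 weeks the CAC arm was uneven, and Serpina3n was the member that passed the test. Its 5 CAC libraries held 51.2, 249.85, 26.9, 112 and 22.4 TPM. Con of 4 weeks held 4.81, 10.4, 18.6, 21.1 and 15.7 TPM, and NCAC 17.8, 8.09, 6.57, 25.4 and 28.3 TPM. Libraries 2 and 4 of CAC were highest, and library 1, at 51.2 TPM, also lay above every Con and NCAC library of that week. Libraries 3 and 5 lay near the other arms. All 5 were above Con, but the lowest CAC values overlapped with NCAC. Serpina3n was higher in CAC than in Con by 2.20 (SE 0.52, limma adjusted p = 0.0124), where 0.819% of genes were called higher and 3.03% lower. This was 1 of the 6 members tested, and the only one wholly above Con, as were 0.906% of genes. The call was lost when CAC library 2 was left out (1.70, adjusted p = 0.107) and when only the 10 libraries compared were fitted (adjusted p = 0.550). Against NCAC the difference was 1.98 (SE 0.52, limma adjusted p = 0.0563). Here 0 members were called, with 0.588% of all genes called higher and 0% lower. Without adjustment 5 members had p under 0.05, a looser threshold than that of the 0.588%. The share of all genes under it is not given, so no excess of members is read from the 5. Among them, Serpina3h, Serpina3i and Serpina3m had passed the filter mainly through CAC libraries. Serpina3h alone lay wholly above NCAC, as did 2.07% of genes.

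Serpina3h, Serpina3m and Serpina3i were also highest in libraries 2 and 4 at 4 weeks. Serpina3h held 5.30 and 4.81 TPM in CAC libraries 2 and 4 and 0.896 to 1.06 TPM in the 3 others. Serpina3m held 8.77 and 4.09 TPM there against 0.544 to 1.61 TPM in the rest, and Serpina3i 2.10 and 1.53 TPM against 0.270 to 0.351 TPM. Serpina3c stood out in library 2 alone, at 25.4 TPM, with library 4 at 8.20 TPM, below library 1 at 9.50 TPM. Serpina3k held 2.21, 2.19, 0.583, 4.13 and 0.584 TPM, so that library 1 was level with library 2. None of these 4 passed the test against Con, with differences of 0.60 to 0.95 and limma adjusted p from 0.0787 to 0.327. Nor did Serpina3k (0.73, adjusted p = 0.511). Serpina3h, Serpina3i and Serpina3m were at an unadjusted p under 0.05. These are the genes that passed the filter mainly through CAC libraries, and no share of all genes at that threshold is given beside them. Serpina3h, which passed the filter through the CAC arm, was called after rescaling by median of ratios (0.94, limma adjusted p = 0.0453). Other acute-phase genes followed the same 2 libraries: the 21 listed below summed to 12085 TPM in library 2 and 4328 TPM in library 4, and to 2536 to 2776 TPM in the other 3.

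At 2 weeks Serpina3n was the member with the largest difference to Con, but it missed the threshold. The CAC libraries held 34.1, 47.6, 62.4, 42.5 and 19.7 TPM, the Con libraries 17.2, 8.26, 18.2, 8.32 and 9.89 TPM and the NCAC libraries 20.1, 19.1, 13.7, 28.3 and 25.5 TPM. Every CAC library lay above every Con library, as it did for 8.06% of all genes, whereas the lowest CAC value overlapped with NCAC. The difference to Con was 1.64 (SE 0.52, limma adjusted p = 0.0549) and that to NCAC 0.87 (SE 0.52, adjusted p = 0.472). Of the 6 members 0 were called against Con, where 4.58% of genes were called higher and 0.0477% lower, and 1 was at an unadjusted p under 0.05. Under 6 alternatives other than leaving out single libraries, Serpina3n was called at 2 weeks, among them library weights (1.73, limma adjusted p = 4.8e-04) and a fit of the 10 libraries alone (adjusted p = 0.0147). Beside this result, 9 of 10 skeletal muscle markers were called higher in CAC than in Con at 2 weeks, with sums of 1136 to 12827 TPM and 70.3 to 2121 TPM, and 7 of 9 macrophage markers; their part in the Serpina3n difference was not tested. Against NCAC 0 members were called at 2 weeks (limma), 0 were at an unadjusted p under 0.05, and 0.0397% of genes were called higher. The CAC libraries lay wholly above NCAC for 0 members and for 3.53% of genes.

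**Figure D3:**
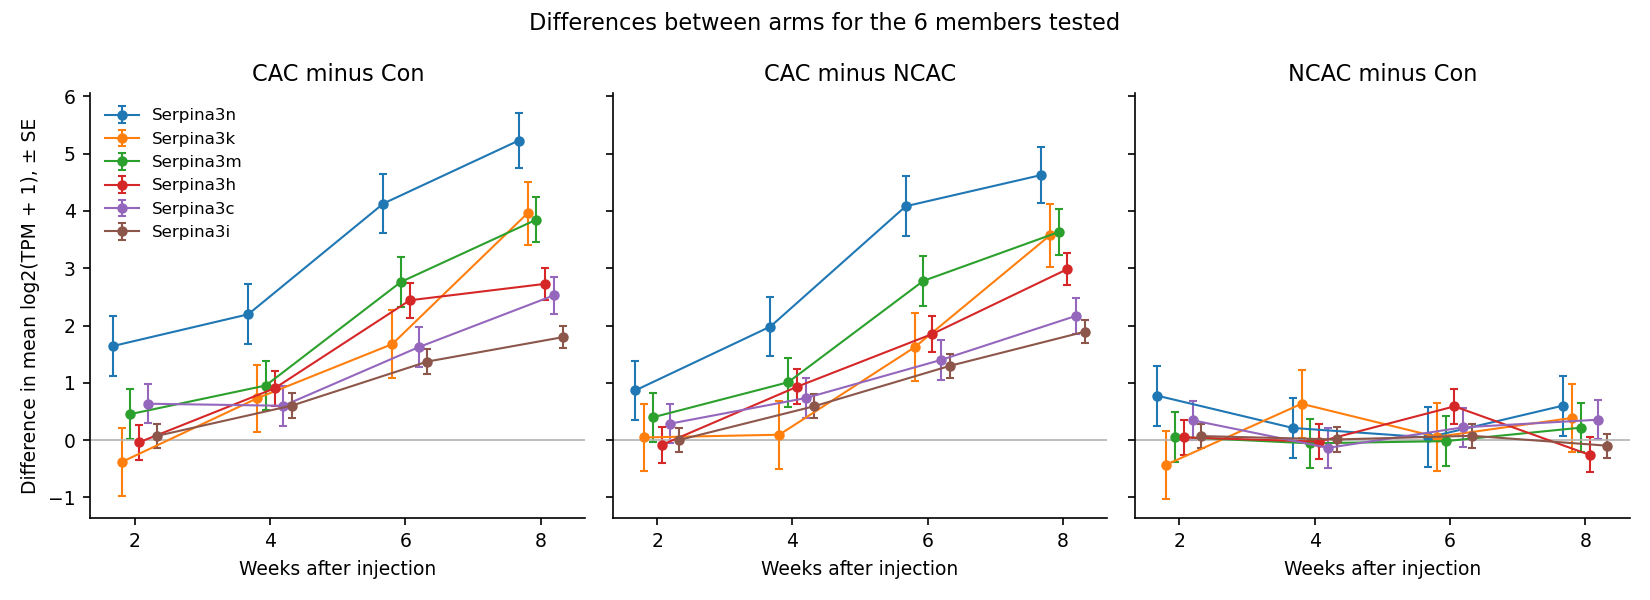
Differences in mean log2(TPM + 1) with their standard errors against weeks after injection for the 6 members tested, 1 line per member, for CAC minus Con (left), CAC minus NCAC (middle) and NCAC minus Con (right). Serpina3n has the largest difference to Con at every week, from 1.64 at 2 weeks to 5.23 at 8 weeks, and the right-hand panel stays between -0.43 and 0.78.

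Members did not differ detectably between NCAC and Con. Between NCAC and Con 0 of the 6 members were called at 2, 4, 6 or 8 weeks (limma), and 0 were at an unadjusted p under 0.05. Of all genes 0% were called higher at each week, and 0.00795%, a single gene, was called lower at 4 weeks. Serpina3n differed by 0.78 (SE 0.52) in the first of these weeks and by 0.21, 0.05 and 0.60 in the later ones, in order, and the other 5 by -0.43 to 0.63. With standard errors of 0.21 to 0.59, differences of this size could not be told from none in the fit of all 62 libraries. These errors pool the spread of all 12 groups, including CAC. At 4 weeks the SD of Serpina3n (log2) was 1.43 in CAC, 0.89 in NCAC and 0.78 in Con. With only the groups compared, its standard errors were 0.25, 0.45, 0.22 and 0.33 at 2, 4, 6 and 8 weeks. The difference of 0.78 at 2 weeks was still not called (limma adjusted p = 0.179), nor were the later ones. The count at an unadjusted p under 0.05 is that of the fit of all libraries.

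Between 2 and 4 and between 6 and 8 weeks of CAC, and between 2 and 8 weeks of the other arms, 0 members passed the test. Neither the step from 4 to 6 weeks of CAC nor that from 2 to 8 weeks was tested. From 4 to 6 weeks of CAC the mean log2(TPM + 1) of Serpina3n went from 5.97 to 7.92. That of Serpina3m went from 1.68 to 3.27 and that of Serpina3h from 1.62 to 2.88. In Con and in NCAC, 0 members were called between 2 and 8 weeks (limma), 0 were at an unadjusted p under 0.05, and all differences lay between -0.56 and 0.26; 0.0318% of genes were called lower in Con and 0% were called in NCAC. In CAC from 2 to 4 weeks 0 members were called, where 0.00795% of genes were called higher, and Serpina3h (0.95, SE 0.31) and Serpina3i (0.53, SE 0.21) were at an unadjusted p under 0.05. From 6 to 8 weeks of CAC 0 members were called, where 0.533% of genes were called higher and 0.119% lower, and 4 (Serpina3k, Serpina3c, Serpina3m and Serpina3i) were at an unadjusted p under 0.05. The largest of these differences was that of Serpina3k, 1.89 (SE 0.55, limma adjusted p = 0.0764). Without CAC library 3 of 8 weeks, Serpina3k (2.29, limma adjusted p = 0.00816), Serpina3m (1.44, adjusted p = 0.00581) and Serpina3c (1.12, adjusted p = 0.0158) were called. The change of the CAC to Con difference itself gave 0 called members from 2 to 4 weeks and 0 from 6 to 8 weeks. In each, 1 member was at an unadjusted p under 0.05 (Serpina3h and Serpina3k). Of all genes 0.00795% were called higher in both and 1.22% lower in the first. The unadjusted counts of this paragraph stand beside shares of adjusted calls, a stricter threshold. No excess of members is read from them.

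The order of the group means was alike among members but not identical. For Serpina3n, Serpina3c and Serpina3m the 4 CAC groups took the first 4 places in the order 8, 6, 4 and 2 weeks. For Serpina3h and Serpina3i CAC at 2 weeks fell among the Con and NCAC groups, and for Serpina3k Con at 2 weeks came next after CAC at 8 and 6 weeks, at 2.54 ± 4.55 TPM (SD, n = 5). For all 6, the libraries of each group overlapped with those of the next group in the order. Overlap of ranges is no test of the difference between group means, and nothing is read from it.

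The mix of members also shifted. Serpina3n made up 57.6% ± 7.93 (SD, n = 5) of the summed TPM of the 8 members in Con at 8 weeks and 80.2% ± 7.02 (n = 7) in CAC, while Serpina3c made up 28.3% ± 5.57 and 6.63% ± 2.35. The ratio of Serpina3n to Serpina3c was 2.13 ± 0.633 in Con and 2.60 ± 1.27 in NCAC at 8 weeks. In CAC the ratio began at 4.71 ± 1.71 (2 weeks) and 7.38 ± 4.30 (4 weeks). It then reached 14.3 ± 1.38 (6 weeks) and 13.2 ± 3.74 (8 weeks). The 5 CAC libraries of 6 weeks, at 12.9 to 15.8, and 6 of 7 of 8 weeks, at 11.4 to 16.3, lay above all other groups but 1 CAC library of 4 weeks, and library 3 of 8 weeks stood at 5.87. The ratio of Serpina3n to Serpina3m showed no such step: its group means ran from 20.9 to 39.9, with 23.2 ± 5.24 in CAC and 32.3 ± 5.30 in Con at 8 weeks. The ratio of Serpina3h to Serpina3i had group means of 2.06 to 4.53 in all arms. The summed level of the 8 members went from 16.3 ± 4.20 TPM in Con to 630.0 ± 388 TPM in CAC at 8 weeks.

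**Figure D4:**
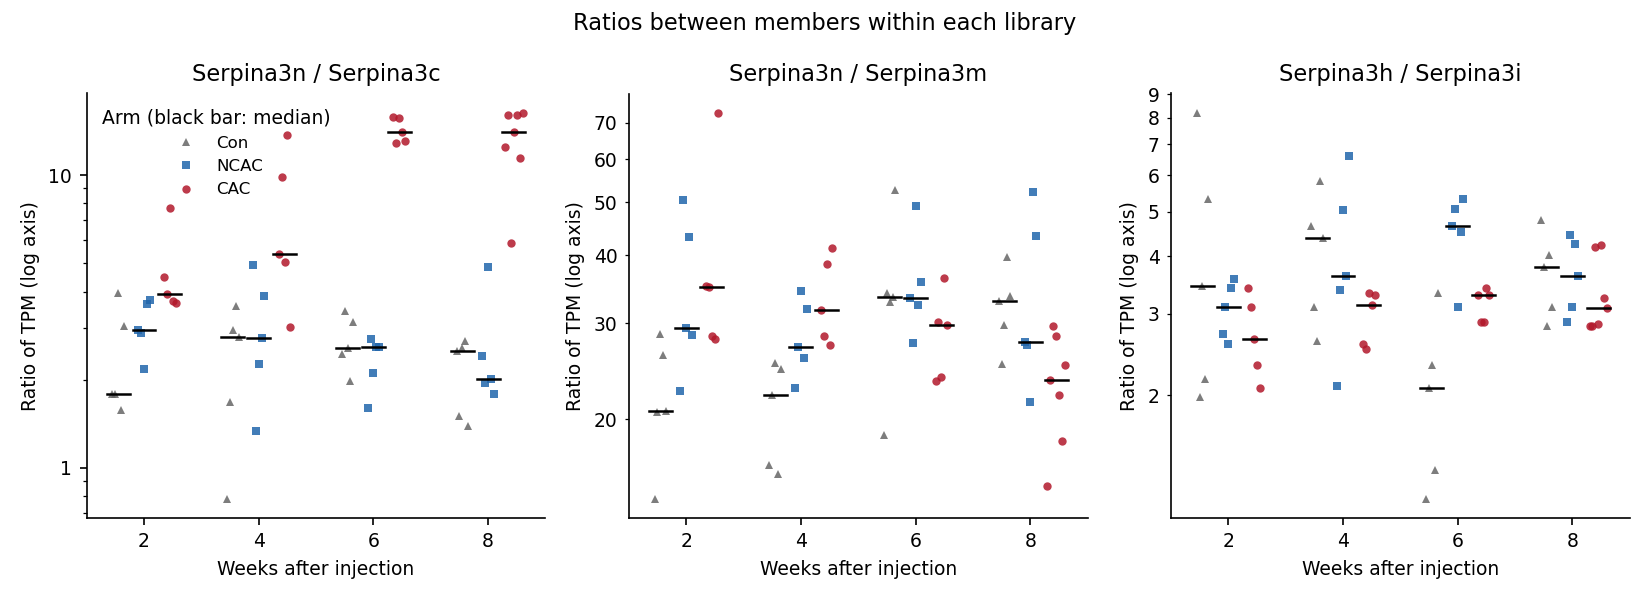
Ratios of TPM between pairs of members within each library (log axes) against weeks after injection, with the arms side by side (Con triangles, NCAC squares, CAC circles) and black bars at group medians. The ratio of Serpina3n to Serpina3c rises to about 13 to 14 in CAC at 6 and 8 weeks, while Serpina3n to Serpina3m and Serpina3h to Serpina3i keep overlapping ranges in all arms.

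Across libraries the 6 tested members were correlated. Over the 62 libraries Pearson's r of log2(TPM + 1) with Serpina3n was 0.97 for Serpina3m, 0.93 for Serpina3c, 0.92 for Serpina3i, 0.91 for Serpina3h and 0.81 for Serpina3k, where the 90th percentile of all genes tested was 0.68. After subtracting each group's mean, so that only differences between libraries of 1 group count, the values were 0.91, 0.80, 0.72, 0.68 and 0.61, with a 90th percentile of 0.48. The closest pair within groups was Serpina3h and Serpina3i, at 0.92, which also share 16.7% of the 50-base stretches of Serpina3h. Among genes outside the list, those most like Serpina3n over the 62 libraries were Rtn4rl2 (0.96), a Nogo receptor relative, Gda (0.96), guanine deaminase, Cpne8 (0.95), Apoc2_1 (0.95), Bmp3 (0.95), Cxcl13 (0.94), a chemokine that draws B cells, Itih4 (0.94), an acute-phase protein, and Apod (0.94). Within groups they were Gda (0.84), Asph (0.84), Rtn4rl2 (0.83), Sult1a1 (0.83), Aldh1l1 (0.81), Cxcl13 (0.80), Serpina3e-ps (0.80) and Rasa3 (0.80). These correlations share libraries, group differences and the fixed TPM total, and are descriptions.

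Promoter sequences of members were compared, and their part in the member levels was not tested. Of these, 2 are shown, those of Serpina3n and Serpina3c. This pair of genes has the most alike windows and holds the only members past 1 TPM in every library. Each window is the 250 bases before the start of transcription, 5′ to 3′ on the gene's strand, from the RefSeq table of GRCm38.p6. Capitals mark the run TTACCAGAA, which fits the loose STAT-type pattern TTNCNNGAA, and, further on, the run CAGAGCACAGCTTGT.
Serpina3n, chr12:104406458-104406707, plus strand: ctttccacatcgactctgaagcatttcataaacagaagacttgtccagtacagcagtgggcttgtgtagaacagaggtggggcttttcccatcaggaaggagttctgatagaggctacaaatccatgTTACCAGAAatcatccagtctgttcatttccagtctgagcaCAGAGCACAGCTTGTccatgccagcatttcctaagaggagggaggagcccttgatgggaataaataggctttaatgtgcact
Serpina3c, chr12:104153873-104154122, minus strand: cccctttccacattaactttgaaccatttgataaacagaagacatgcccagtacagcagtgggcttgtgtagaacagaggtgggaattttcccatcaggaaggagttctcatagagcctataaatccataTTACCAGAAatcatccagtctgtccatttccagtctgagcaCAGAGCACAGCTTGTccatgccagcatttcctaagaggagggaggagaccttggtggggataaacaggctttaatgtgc
The table holds windows for 5 members, with 2 starts for Serpina3f; Serpina3k, Serpina3m and Serpina3h have no entry. Serpina3n and Serpina3c were identical at 92.7% of 247 aligned bases, and other pairs of genes at 69.9% to 85.9% of 64 to 231 aligned bases. STAT factors, which are switched on by IL-6 family cytokines, bind palindromes of the form TTCNNNGAA. On either strand that form occurred in the windows of Serpina3f, Serpina3g and Serpina3i and in 7.02% of 32851 promoter windows of the same length, and it did not occur in those of Serpina3n and Serpina3c. The looser TTNCNNGAA occurred in all 6 member windows and in 11.1% of all; every TTCNNNGAA match in the members was also a match to it. The run CAGAGCACAGCTTGT, the longest held by at least 5 of the member windows, occurred in all but that of Serpina3g, and in 5 windows, or 0.0152%, of all, each of them a member's; 2 of the 5 are the overlapping windows of Serpina3f. The glucocorticoid receptor half-site AGAACA occurred in 4 of 6 windows and in 16.1% of all. The loose form was picked by reading the members' own windows and the long run was derived from them, so their presence there is a description. Serpina3f, a member without high levels, holds both.

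**Figure D5:**
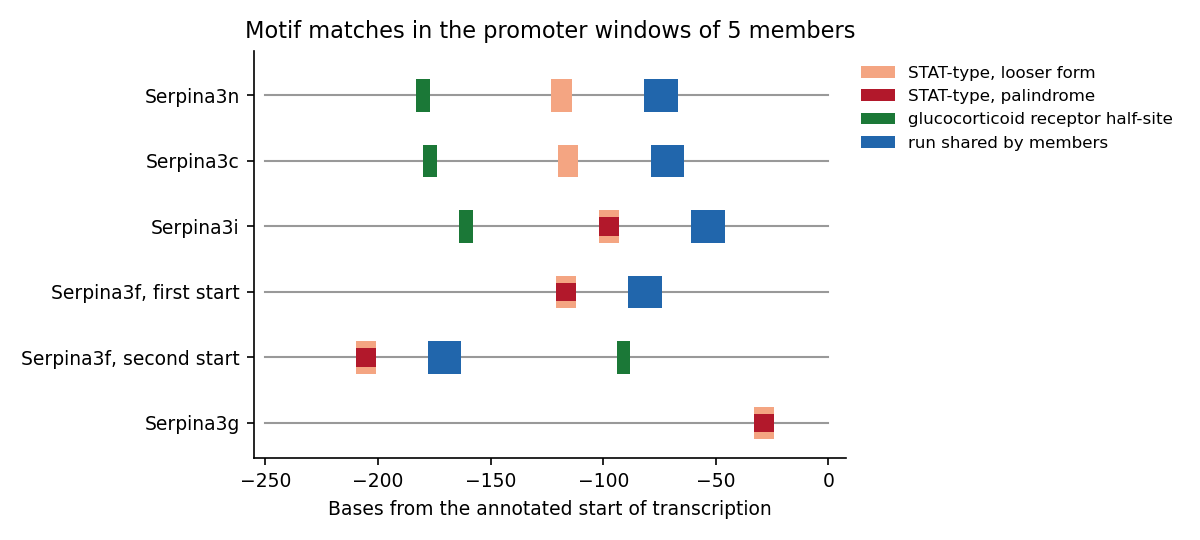
Motif matches in the promoter windows of 5 members, drawn by distance in bases from the annotated start, with 1 line per window and 2 starts for Serpina3f; box widths are the lengths of the matches. The looser STAT-type form (orange) is in all 6 windows, the palindrome (red) in those of Serpina3i, Serpina3f and Serpina3g, and the run shared by members (blue) in all but that of Serpina3g.

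Many genes of inflammatory and glucocorticoid signalling were high in the CAC arm as well. Of 24 listed genes of IL-6 family, STAT3, NF-kB and glucocorticoid signalling, 19 were tested, and 16 were called higher and 0 lower in CAC than in Con at 8 weeks, with a median of 1.02 beside 0.28 over all genes; after median-of-ratios rescaling 12 were higher and 1 lower. The largest differences were those of Fkbp5, a glucocorticoid-induced chaperone partner (4.21, SE 0.66), Socs3, the feedback inhibitor of STAT3 signalling (2.45, SE 0.26), Cebpd, an inflammatory transcription factor (2.21, SE 0.32), and Osmr, the oncostatin M receptor (2.11, SE 0.22). At 4 weeks 4 were called higher and 0 lower than Con, Socs3 (1.46), Osmr (1.26), Stat3 (1.04) and Il1r1 (0.80). The share of all genes called higher was 52.1% at 8 weeks, 13.5% there after rescaling, and 0.819% at 4 weeks. Il6 itself stood at 0 to 0.366 TPM in CAC at 8 weeks and was not tested. The part of these pathways in the member levels was not tested. All of these lists were chosen with earlier results of these data known.

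Other acute-phase genes rose with the members. Of 21 listed, 19 were tested and 18 were called higher, 0 lower, at 8 weeks (median 1.78), and 7 at 4 weeks. Over all genes 52.1% were called higher than Con at 8 weeks (median 0.28), or 13.5% after median-of-ratios rescaling, and 0.819% at 4 weeks. Itih4, a member of the inter-alpha-trypsin inhibitor family, was higher by 8.09 (SE 0.62), C4b, a complement component, by 5.26 (SE 0.34), Hp, haptoglobin, by 4.66 (SE 0.48), and Lrg1 by 3.48 (SE 0.35). Serpina3n, at 5.23, thus lay among the largest of this group. In CAC library 3 of 8 weeks, the one low in Serpina3n, the 21 genes summed to 1818 TPM, against 8719 to 18399 TPM in the other 6.

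Other serpins and possible target proteases moved less. Of 18 serpins elsewhere in the genome, 11 were tested and 6 were called higher, 0 lower, at 8 weeks (median 0.35), near the 52.1% called higher and the median of 0.28 over all genes; among them were Serping1, the C1 inhibitor (1.65, SE 0.21), Serpinb1a (0.69) and Serpinb6a (0.69). After median-of-ratios rescaling 4 were called higher and 1 lower. Of the 13 Serpina genes next to the cluster 3 were tested, with 1 called lower: Serpina12, vaspin, fell by 1.06 (SE 0.25). Of 18 proteases 12 were tested and 5 were called higher, 0 lower (median 0.50), a share below that of all genes: Prtn3, proteinase 3 (3.39, SE 0.30), and the lysosomal cathepsins Ctss (1.54, SE 0.32), Ctsl (1.26, SE 0.16), Ctsc (1.05, SE 0.19) and Ctsb (0.95, SE 0.11). Prtn3 stood at 4.60 to 29.9 TPM in CAC and 0.487 to 1.93 TPM in Con at 8 weeks, while Elane, made by the same immature neutrophils, did not pass 1.14 TPM in CAC. Which cells held the Prtn3 transcript was not tested.

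Markers of other cells moved with the members in part. In CAC against Con at 8 weeks 52.1% of all genes were called higher and 1.97% lower, or 13.5% and 12.8% after median-of-ratios rescaling. All 9 macrophage markers tested of 9 in the file were called higher in this comparison. Their sum was 249 to 607 TPM in CAC, lowest in library 3, and 125 to 164 TPM in Con. Of 10 neutrophil markers 4 were tested and 3 were called higher, with sums of 13.6 to 52.4 TPM in CAC, highest in library 3, and 9.78 to 16.5 TPM in Con. Of 8 gland epithelium markers 5 were called lower in CAC at 8 weeks, with sums of 1.08 to 40.5 TPM against 16.4 to 122 TPM in Con. The 8 lymphocyte markers, of which 2 were tested and 1 was called lower, summed to 6.47 to 18.3 TPM in CAC and 20.8 to 64.8 TPM in Con. The part of these cells in the member levels was not tested.

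Liver is the main source of several of these inhibitors, so hepatocyte markers are given for the libraries concerned. Cyp2e1, which brown fat of all groups held, was called higher in CAC than in Con at 8 weeks (1.81), at 323 to 1548 TPM, lowest in library 3, against 139 to 441 TPM. The 13 other hepatocyte markers summed to 3.99 to 7.36 TPM in the CAC libraries of 8 weeks and 2.23 to 5.24 TPM in Con, with albumin (Alb) at 0.0388 to 0.524 TPM and Ttr at 0 in 6 of the 7 CAC libraries. Among the 13, Alb and Ttr were at or near 0 in these CAC libraries, but Ttc36 stood at 1.39 to 4.44 TPM. Cyp2e1 was not near 0 either. The part of liver cells in the member levels was not tested. Con library 1 of 2 weeks was different: there the 13 genes summed to 185 TPM, against 4.22 to 12.1 TPM in the other 4, with Alb at 93.1 TPM. That library also held 10.7 TPM of Serpina3k, against 0.104 to 0.916 TPM in the other 4, and 9.66 TPM of Serpina3c, the highest of any Con or NCAC library. Without it and without CAC library 3 of 8 weeks, an alternative chosen after seeing the data, Serpina3n was higher in CAC than in Con at 2 weeks by 1.77 (limma adjusted p = 0.0435) and at 8 weeks by 5.75 (SE 0.42).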

How the data were processed

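RNA was extracted with Trizol, and stranded mRNA libraries (TruSeq) were sequenced on an Illumina NovaSeq, per the labels' protocols. The values deposited by the authors are TPM for 47643 gene symbols, on mm10 per the submitters' processing notes; the aligner and annotation are not given in the sources used here. Depth is unknown, since TPM keeps none, so no counting interval can be given. Columns were assigned to groups by sample title; 0 columns were left unused. In the titles of 4 weeks, 1 CAC and 1 Con library share a sample number.

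Genes under 1 TPM in all but 4 or fewer libraries were dropped, which left 12581, and the deposited TPM became log2(TPM + 1). A single limma fit (version 3.58.1 under R 4.3.3, empirical Bayes with a trend) estimated 12 group means from all 62 libraries; p-values were adjusted by Benjamini-Hochberg over every gene fitted, with calls under 0.05. The fit was tested on simulated data. The labels call the samples biological replicates without naming animals, so p-values measure the spread between these samples.

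The members, lists and comparisons were chosen with earlier results of these data known. Named were all members and up to 4 called genes per pathway list with the largest CAC to Con difference at 8 weeks. The 8 genes outside the list most correlated with Serpina3n over libraries and within groups were also named. Outside that rule, the pathway genes named at 4 weeks, Elane, Il6, Alb, Ttr, Ttc36, Ctsb and Serpina3e-ps were chosen after their values were seen. One gene that the rule names among the other serpins is not reported here. Alternatives were a pseudocount of 0.1, no filter, a filter at 5 TPM, median-of-ratios and quantile rescaling, removal of mitochondrially encoded genes, library weights, the replicate number as a block, only the groups compared, and leaving out libraries. Sequences come from GENCODE vM21 transcripts and the RefSeq promoter table of GRCm38.p6, and were aligned with Biopython 1.88 (Python 3.11.15). Figures were drawn with matplotlib 3.10.9.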

Additional observations from a re-analysis of the deposited data

Results flagged for a closer look

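In the 72 sets of libraries formed by 6 members and 12 groups, 5 had a library far from the others of its group by Dixon's test; chance flags about 1 in 20 such sets. Serpina3n was low in CAC library 3 of 8 weeks, at 42.35 TPM with the next library at 315.55 TPM. Serpina3k was high in Con library 1 of 2 weeks, at 10.665 TPM with the next at 0.916 TPM, the library that also held liver transcripts. Serpina3k was also high in Con library 2 of 8 weeks, at 1.4906 TPM with the next at 0.479 TPM. Serpina3i was high in CAC library 3 of 2 weeks, at 0.75021 TPM with the next at 0.214 TPM, and in NCAC library 4 of 6 weeks, at 0.66698 TPM with the next at 0.211 TPM. In these last 2 libraries Serpina3h was also the highest of its group, at 1.99 and 3.01 TPM. The causes were not tested.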

How the results depend on the processing

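Under all alternatives run, the differences of Serpina3n between CAC and the other arms at 6 and 8 weeks kept their direction; leaving out single libraries gave 3.94 to 4.35 (Con, 6 weeks), 5.02 to 5.75 (Con, 8 weeks), 3.89 to 4.30 (NCAC, 6 weeks) and 4.41 to 5.15 (NCAC, 8 weeks). The number of members called against Con at 2 weeks went from 0 to 1 with a pseudocount of 0.1, without mitochondrially encoded genes, without Con libraries 3 and 4 of 4 weeks, with only the groups compared, and, added after the data were seen, without Con library 1 of 2 weeks and CAC library 3 of 8 weeks; it was 2 with library weights and 0 to 1 on leaving out single libraries (1 without CAC library 5). Against Con at 4 weeks the count of 1 became 2 with a pseudocount of 0.1, median-of-ratios or quantile rescaling, 3 without mitochondrially encoded genes, 0 with only the groups compared, and 0 to 3 on leaving out single libraries. Against NCAC at 4 weeks the count of 0 became 1 with median-of-ratios or quantile rescaling, without mitochondrially encoded genes and without the 2 libraries named above, and 0 to 1 on leaving out single libraries. From 6 to 8 weeks of CAC the count of 0 became 3 with library weights and without those 2 libraries, and 0 to 3 on leaving out single libraries; the change of the CAC to Con difference from 6 to 8 weeks went from 0 to 3 with library weights. The other 9 counts remained at 0 under every alternative. Serpina3n changed sign in 3 comparisons, none of them called. Between NCAC and Con at 6 weeks (0.05) it was -0.078 with median of ratios, -0.072 with quantile rescaling, -0.10 without mitochondrially encoded genes, -0.074 with library weights, and -0.060 to 0.16 on leaving out single libraries, below 0 without Con library 4 or 5 or NCAC library 2 or 5. At 4 weeks (0.21) it was -0.10 to 0.48 on leaving out single libraries, below 0 without Con library 1 or NCAC library 5. From 2 to 4 weeks of CAC (0.66) it was -0.21 with library weights. The cause of these shifts was not tested.

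The replicate numbers of the labels did not pair the libraries: the mean correlation of deviations was -0.0146 for libraries with the same number and 0.0033 for others. With the replicate block, 1 member was called against Con at 4 weeks (Serpina3n, 2.20, limma adjusted p = 0.0139) and 0 in the 13 other tested comparisons, the same counts as without it; its difference to Con at 8 weeks was 5.01, a fit to which CAC libraries 6 and 7 add nothing, having numbers of their own. The unknown depth limits Serpina3f, Serpina3g and the basal levels of Serpina3h, Serpina3i and Serpina3m, all near or under 1 TPM.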
